A study of Drosophila melanogaster with 12 samples.

Results

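The basement membrane genes of the Drosophila wing disc were followed in hinge cells and in the rest of the disc, without irradiation and after ionizing radiation (IR). The 9 genes were SPARC, the collagen IV chains Col4a1 and vkg, the laminin chains LanA, LanB1 and LanB2, trol, Ndg and Tig. They were taken by their symbols from 17753 genes in the table, and all 9 were among the 10617 genes that passed the filter on low counts. The genes were chosen by role and name, with earlier measured levels of all 12 libraries known, and no record says which comparison weighed in the choice. The adjusted p-values below therefore describe where each gene stood in a fit over all genes and are not independent evidence about the group.

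All larvae carried 1 copy of 30A-GAL4>UAS-G-trace in a w1118 background and lacked the SM5 balancer, since parents were w1118 and 30A-GAL4>UAS-G-trace/SM5 flies and only larvae with RFP and GFP were kept. In G-trace, RFP shows that the driver is active at the time of sorting and GFP that it was active in the past. POS cells were RFP+GFP+ and come from the hinge, where 30A-GAL4 is active. NEG cells were RFP-GFP- and come from the pouch, the notum and any cells attached to the disc. RFP-GFP+ cells, which had lost driver activity, were in neither population. Larvae received 4000 R of X-rays and were sorted 24 h (IR+24h) or 48 h (IR+48h) later, or were sorted 24 h after a mock treatment (-IR). No -IR group was sampled at 48 h, and the IR+48h groups mixed larvae that had been irradiated at different ages, so that changes to IR+48h can hold differences in development as well as IR. Each of the 6 groups had 2 libraries, made from discs pooled over crosses and sorts. The methods describe the 2 libraries as independent biological replicates of the whole experiment.

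A basement membrane is the sheet of matrix beneath an epithelium. Laminin trimers bind receptors on the cell surface, collagen IV forms a second network that gives the sheet its strength, and perlecan and nidogen connect them. SPARC binds collagen IV and is needed for its normal deposition, and tiggrin is a ligand of integrins at muscle attachments. In the larva, much of the collagen IV that covers the discs is made by the fat body and reaches them through the hemolymph, and hemocytes and the muscle precursors that lie on the notum epithelium are further known sources of matrix. Transcript levels in sorted disc cells thus do not measure how much protein lies under the epithelium.

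Total counts per library ranged from 4211088, in NEG -IR replicate 1, to 19940040, and 3 counts corresponded to 0.146 to 0.726 CPM, which are counts scaled to the library total after TMM factors had corrected for differences in library composition. The 9 genes took 0.241% to 1.14% of all counts of a library. Their own counts ran from 6, for Ndg in NEG -IR replicate 1, to 56032 for LanA, so that counting error was small except for Ndg in that library. As a check of the sort, the 4 hinge markers together stood in POS at 565%, 463% and 397% of their NEG level at -IR, IR+24h and IR+48h. The pouch markers (vg, dve, Cyp310a1 and ana) stood in POS at 39.9%, 46.3% and 46% of their NEG level. The notum markers (pnr, tup and eyg) stood at 36.6%, 30.7% and 23.6%, so both were lower in POS but not absent. The 7 fat body markers summed to 8.35 to 64.8 CPM. In edgeR, 0 of 7 were called between POS and NEG at -IR, IR+24h or IR+48h, where 2.67%, 0.509% and 0.33% of all genes were. Markers of muscle precursors and hemocytes differed between the sorted populations and are given beside the results that they move with.

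**Figure D1:**
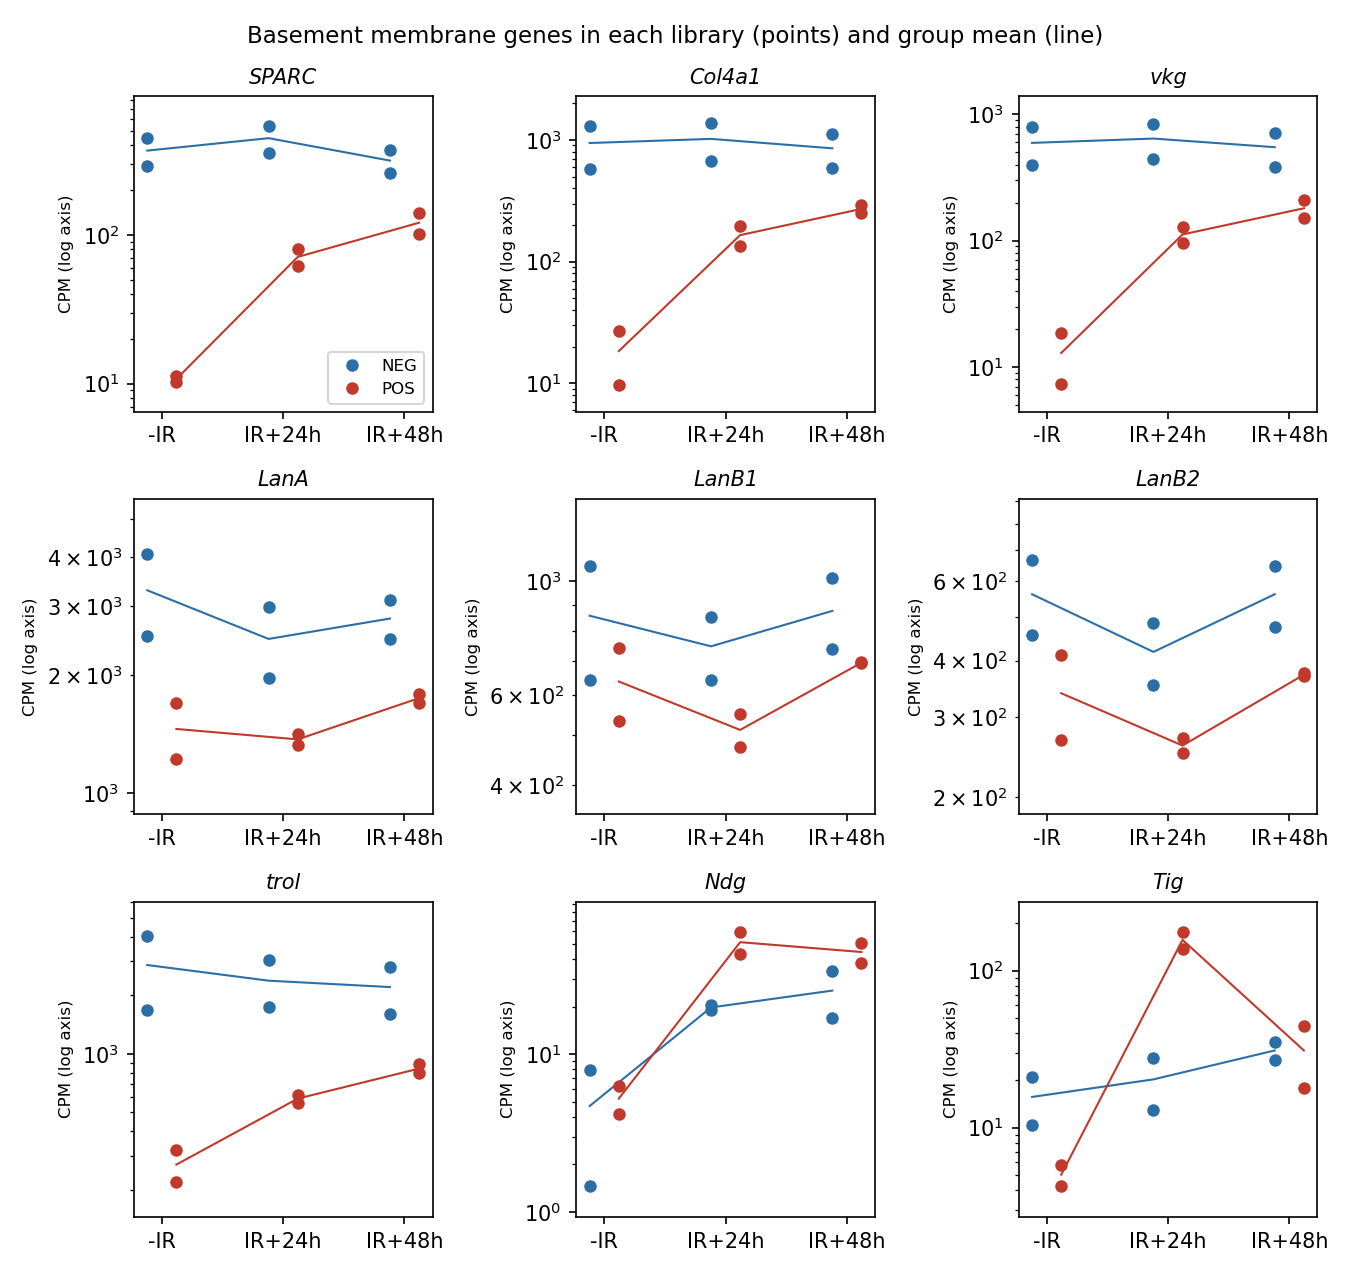
Levels of the 9 genes (CPM, log axis) in each of the 12 libraries, 1 panel per gene, with NEG and POS at -IR, IR+24h and IR+48h; each point is 1 library and the lines join group means. SPARC, Col4a1, vkg and trol lay lowest in the POS -IR libraries, the laminin chains spanned 2.26- to 3.33-fold, and Tig peaked in POS IR+24h.

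Col4a1 encodes the alpha 1 chain of collagen IV (FBgn0000299, chromosome 2L, 5029609 to 5037279, plus strand) and vkg the alpha 2 chain (FBgn0016075, chromosome 2L, 5012144 to 5028191, minus strand). Positions are those of the BDGP6.54 annotation. The gene ends that face each other are 1417 bases apart, and the genes are transcribed away from each other. Both chains were scarce in POS cells without IR and abundant in NEG cells.

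Col4a1 stood at 573 and 1312 CPM in the NEG -IR libraries (replicates 1 and 2) and at 9.72 and 27.2 CPM in the POS -IR libraries. At IR+24h it had 1364 and 674 CPM in NEG and 195 and 135 CPM in POS. At IR+48h it had 587 and 1118 CPM in NEG and 291 and 251 CPM in POS. The POS values thus lay below every NEG value at each time point, and the POS libraries after IR lay above both POS libraries without IR. In NEG, the 2 libraries of a group lay farther apart than the means of the 3 groups.

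vkg repeated these values on a lower scale. It had 394 and 794 CPM in NEG -IR, 7.27 and 18.6 CPM in unirradiated POS, 839 and 446 CPM in NEG IR+24h and 128 and 96.3 CPM in POS IR+24h. At IR+48h the NEG libraries had 384 and 714 CPM and the POS libraries 209 and 151 CPM. The ratio of Col4a1 to vkg counts within a library was 1.34 to 1.66, with a median of 1.52, although both genes varied over the libraries by 140-fold and 115-fold. Across the 12 libraries the log2 CPM of the 2 chains had a Pearson correlation of 0.999, which is a description over libraries that share their groups and may be paired.

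SPARC (FBgn0026562, chromosome 3R, 26869238 to 26871995, minus strand) followed the collagen IV chains. Its levels were 290.4 and 446 CPM in NEG -IR against 10.2 and 11.2 CPM in unirradiated POS, 537 and 356 CPM against 61.8 and 80.1 CPM at IR+24h, and 259 and 372 CPM against 139 and 102 CPM at IR+48h. The NEG and POS libraries did not overlap at any time point, and the POS libraries of the 3 time points formed 3 separate steps. Relative to the mean, the spread between the replicates was smaller for SPARC than for both collagen IV chains, except in POS IR+48h, where Col4a1 had the smaller spread. The standard errors of SPARC were smaller than those of both chains. SPARC counts were 0.316 to 1.05 times those of Col4a1 within a library, with the highest ratio in POS -IR replicate 1, and the correlation between the genes was 0.983.

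trol (FBgn0284408, chromosome X, 2470460 to 2545427, minus strand) encodes perlecan, the heparan sulfate proteoglycan of basement membranes. It had 1688 and 4024 CPM in unirradiated NEG and 219 and 322 CPM in unirradiated POS. The values were 3016 and 1732 CPM in NEG and 615 and 563 CPM in POS at IR+24h, and 1607 and 2795 CPM in NEG and 887 and 793 CPM in POS at IR+48h. As with collagen IV, POS lay below NEG throughout and the POS libraries after IR lay above those without, over a narrower range of 18.4-fold.

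The laminin genes encode the alpha chain LanA (FBgn0002526, chromosome 3L, 6203831 to 6218022, minus strand), the beta chain LanB1 (FBgn0261800, chromosome 2L, 7811438 to 7820771, plus strand) and the gamma chain LanB2 (FBgn0267348, chromosome 3L, 9614914 to 9623980, plus strand). Their levels varied far less than those of collagen IV. LanA had 2511 and 4070 CPM in unirradiated NEG and 1221 and 1698 CPM in unirradiated POS, 2979 and 1969 CPM against 1419 and 1327 CPM at IR+24h, and 2466 and 3110 CPM against 1793 and 1704 CPM at IR+48h. POS was below NEG in each case.

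LanB1 had 643 and 1071 CPM in unirradiated NEG and 532 and 742 CPM in unirradiated POS, and these groups overlapped. At IR+24h the NEG libraries had 852 and 641 CPM and the POS libraries 551 and 474 CPM, and at IR+48h the NEG libraries had 737 and 1015 CPM and the POS libraries 692 and 695 CPM. LanB2 ran from 353 to 666 CPM in the 6 NEG libraries and from 250.3 to 411 CPM in the 6 POS libraries, and within each time point both POS libraries lay below both NEG libraries. LanB1 counts were 1.41 to 2.04 times those of LanB2 within a library, and LanA counts 2.29 to 3.91 times those of LanB1. Both POS -IR libraries had the lowest LanA to LanB1 ratio, 2.29, and the NEG -IR libraries the highest, 3.91 and 3.80.

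Ndg encodes nidogen, which links the laminin and collagen IV networks (FBgn0026403, chromosome 2R, 10313891 to 10322104, plus strand). Its exons overlap those of CG34222 on the opposite strand over 3.28% of their length, and since the strand of counting is not stated, a small part of its reads may belong to that gene. Ndg was low without IR, at 1.45 and 7.92 CPM in NEG and 4.17 and 6.27 CPM in POS, and these groups overlapped. All 8 libraries after IR were higher, at 20.3 and 19.2 CPM in NEG IR+24h, 43.2 and 59.3 CPM in POS IR+24h, 17.0 and 33.5 CPM in NEG IR+48h and 37.9 and 50.8 CPM in POS IR+48h. It was the only member whose levels without IR lay below those after IR in both populations with no overlap.

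Tig encodes tiggrin (FBgn0011722, chromosome 2L, 6415179 to 6423310, minus strand), and 2.24% of its exon length overlaps CG13982 on the opposite strand. It had 10.4 and 20.9 CPM in unirradiated NEG and 5.80 and 4.22 CPM in unirradiated POS. In the POS IR+24h libraries it stood at 138 and 176 CPM, above every other library, while the NEG IR+24h libraries had 27.5 and 13.0 CPM. At IR+48h it had 34.9 and 27.1 CPM in NEG and 44.1 and 17.9 CPM in POS, and these groups overlapped.

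Levels of different genes were compared as CPM per kilobase of exon. In NEG -IR, SPARC and LanA were highest, at means of 307 and 282 CPM per kilobase with overlapping libraries, followed by Col4a1 at 153, trol at 138, LanB1 at 136, LanB2 at 94.7 and vkg at 91.3. Each of these overlapped its neighbour in that order except Col4a1, whose 2 libraries, at 92.9 and 213, lay below both SPARC and LanA libraries. Tig at 2.23 and Ndg at 0.973 were far below and overlapped each other. In POS -IR the laminin chains led, LanA at 125 and LanB1 at 101 with overlapping libraries and LanB2 at 57.3 below them, and were followed without overlap by trol at 13.1, SPARC at 8.92 and Col4a1 at 2.99. The libraries of Col4a1 overlapped those of vkg, at 1.99, those of vkg overlapped those of Ndg, at 1.08, and Tig was last, below both Ndg libraries, at 0.714. By IR+48h the POS order was LanA at 150, LanB1 at 110, SPARC at 100.4, LanB2 at 63.0, Col4a1 at 44.0, trol at 40.6, vkg at 27.7, Ndg at 9.21 and Tig at 4.42 CPM per kilobase. LanB1 and SPARC overlapped there, as did Col4a1 and trol. The exon length of trol merges 25 annotated transcripts and may be longer than the transcripts the disc makes, which would lower its value.

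The first comparison asked how hinge cells differ from other disc cells without IR. Except for Ndg, which was close to 0, all genes had a log2 fold change below 0 in POS, and the 9 had a median of -1.70 against 0.01 over all genes. In the edgeR quasi-likelihood test over 12 libraries, 5 of 9 passed an adjusted p of 0.05, all lower, where 2.67% of all genes were called and 1.76% were called lower. These were Col4a1 at -5.67 ± 0.611 (SE, 50.7-fold lower, adjusted p 0.000694), vkg at -5.51 ± 0.555 (45.6-fold, 0.000517), SPARC at -5.10 ± 0.327 (34.3-fold, 3.75e-05), trol at -3.40 ± 0.422 (10.6-fold, 0.00158) and LanA at -1.17 ± 0.257 (2.25-fold, 0.0347). LanB2 at -0.73 ± 0.249, Tig at -1.70 ± 0.492 and LanB1 at -0.43 ± 0.255 had adjusted p of 0.158, 0.0973 and 0.441.

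SPARC, Col4a1, vkg and trol stayed past the threshold without any 1 of the 12 libraries. LanA did not: its edgeR adjusted p was above 0.05, up to 0.161, in the 7 fits without NEG -IR replicate 2, POS -IR replicate 1, either POS IR+24h library, NEG IR+48h replicate 2 or either POS IR+48h library. With same-numbered POS and NEG libraries of a time point as pairs (the replicate block within each time point), 7 of 9 were called, with 11.8% of all genes, the added genes being LanB2 at an adjusted p of 0.00351 and Tig at 0.0127.

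The muscle precursor markers moved with collagen IV, SPARC and trol. The 7 markers (twi, Him, zfh1, htl, stumps, Mef2 and nau) were all lower in POS -IR and 5 of them were called, and their summed level was 737 and 2018 CPM in NEG -IR against 66.7 and 122 CPM in unirradiated POS, where nau was at 0. POS held 6.86% of the NEG sum, or 2.41% without Mef2, which made up 76.9% and 64.7% of the sum in POS -IR, against 1.96% for Col4a1, 2.17% for vkg, 2.91% for SPARC and 9.46% for trol. The share was 2.88% for twi, 3.29% for zfh1 and 1.57% for Him. The 10 hemocyte markers summed to 109 and 157 CPM in unirradiated NEG and to 35.7 and 22.0 CPM in unirradiated POS, where NimC2 and PPO2 were at 0, and 1 of 10 was called lower. By log2 fold change, 9 of the 10 were lower in POS -IR and 1 was higher. Most of the POS -IR sum was srp and crq, at means of 9.93 and 14.4 CPM, against 9.1 and 22 CPM in NEG -IR. In these bulk libraries, fewer cells of a type and less RNA per cell cannot be told apart. The part of muscle precursors and hemocytes in the POS to NEG difference was not tested.

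**Figure D2:**
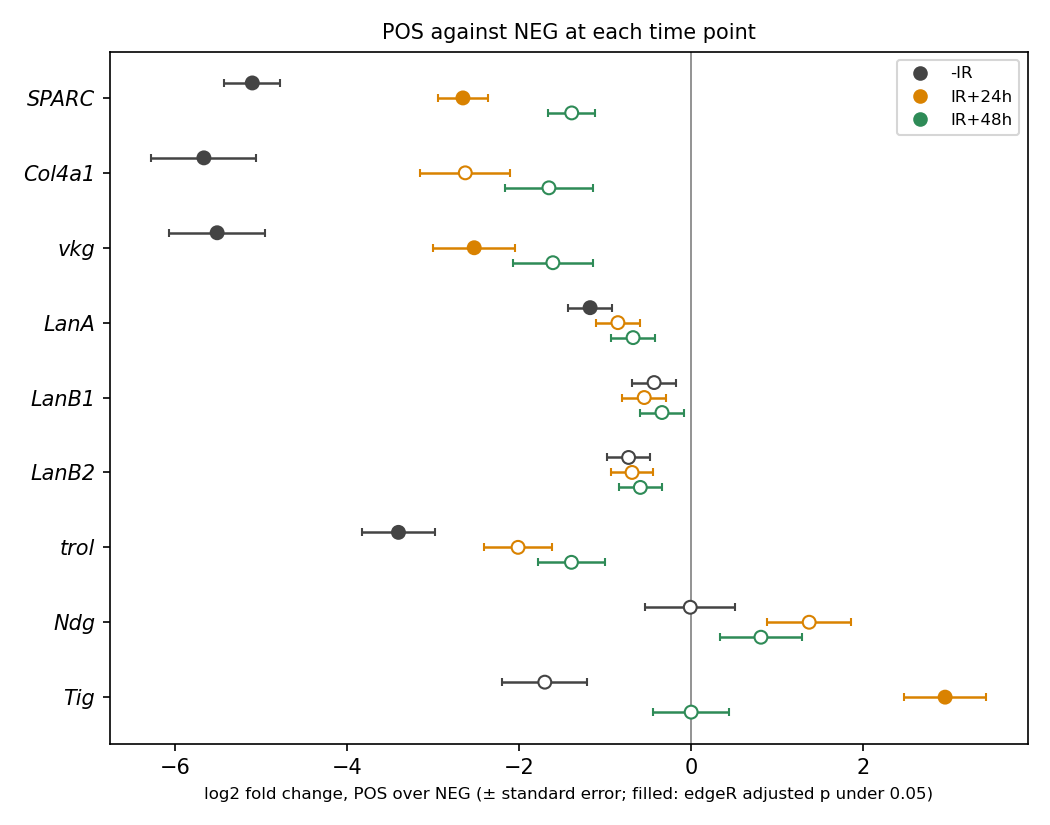
Log2 fold change of POS against NEG for each of the 9 genes at -IR, IR+24h and IR+48h, with bars of 1 standard error from the edgeR fit and filled points for genes past an adjusted p of 0.05. SPARC moved from -5.10 through -2.65 to -1.39 and Col4a1 from -5.67 through -2.63 to -1.65, while the laminin chains stayed between -1.17 and -0.34 and Tig reached 2.96 at IR+24h.

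At 24 h after IR the values of the same comparison lay closer to 0 for collagen IV, SPARC and trol, and the test of that difference is given with the changes after IR. The median of the 9 genes was -0.85 against -0.02 over all genes, with 2 genes higher and 7 lower in POS. In edgeR, 3 of 9 were called, where 0.509% of all genes were, 0.207% higher and 0.301% lower. SPARC was lower at -2.65 ± 0.288 (adjusted p 0.00224) and vkg at -2.52 ± 0.478 (0.0468), and Tig was higher at 2.96 ± 0.473 (7.76-fold, 0.015). Col4a1 at -2.63 ± 0.526 and trol at -2.01 ± 0.399 missed the threshold at 0.0568 and 0.0564. The edgeR adjusted p of vkg rose above 0.05, up to 0.527, when NEG IR+24h replicate 1, either POS IR+24h library or NEG IR+48h replicate 2 was left out, and that of Tig, up to 0.145, when any 1 of the 4 IR+24h libraries was. With the libraries treated as pairs (replicate block within each time point), 9 of 9 were called, 2 higher and 7 lower, with 3.68% of all genes. Whether they were pairs is not known for any time point. Deviations of POS and NEG libraries correlated at 0.471 for -IR, but at only 0.11 for IR+24h and 0.162 for IR+48h.

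At 48 h, 0 of 9 were called in edgeR, where 0.33% of all genes were. At an unadjusted p under 0.05 there were 6 of 9, and 664 of the 10617 genes tested. With limma voom 1 of 9 was called (0.48% of all genes) and with DESeq2 3 of 9 (1.22%). SPARC at -1.39 ± 0.275 (adjusted p 0.0725), Col4a1 at -1.65 ± 0.508 (0.404), vkg at -1.61 ± 0.463 (0.329) and trol at -1.39 ± 0.391 (0.315) had the lowest values, and POS lay below NEG in each of the 4 possible library pairs for each of these genes. With the replicate block within each time point, 6 of 9 were called lower, SPARC, Col4a1, vkg, LanA, LanB2 and trol, with 2.54% of all genes. Ndg stood at 0.81 ± 0.48 (edgeR adjusted p 0.992).

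**Figure D3:**
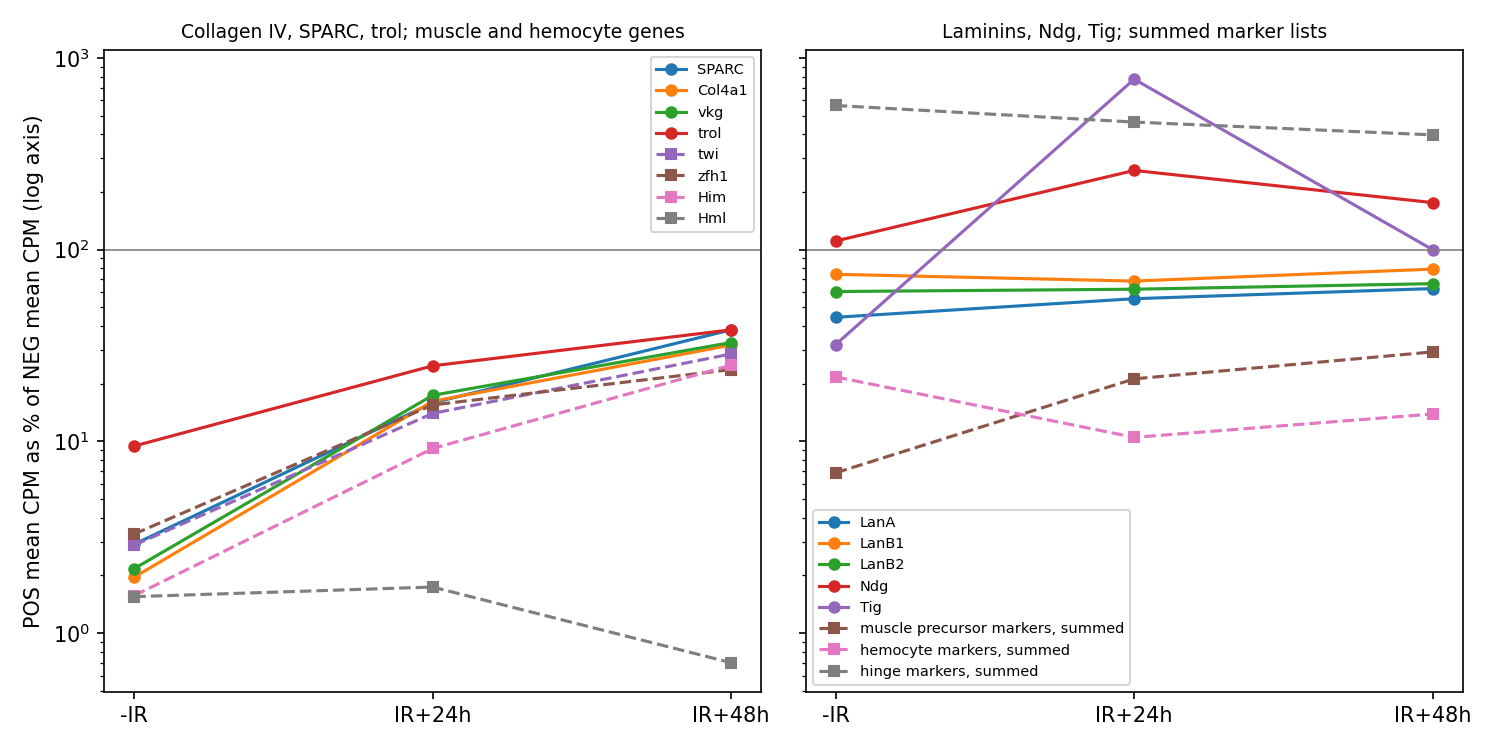
POS level as a percent of the NEG level (log axis) at -IR, IR+24h and IR+48h from group means of CPM: collagen IV, SPARC and trol with the muscle precursor genes twi, zfh1 and Him and the hemocyte gene Hml (left), and the laminin chains, Ndg and Tig with the summed muscle precursor, hemocyte and hinge markers (right); dashed lines are markers. SPARC ran from 2.91% to 15.9% to 38.2% and the muscle precursor sum from 6.86% to 21.2% to 29.3% (2.41%, 14.1% and 25.3% without Mef2, not drawn), while the hemocyte sum had 21.7%, 10.5% and 13.9%. In POS at -IR and IR+24h the hemocyte sum was mostly srp and crq.

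Expressed as the share of the NEG level found in POS, SPARC had 2.91% without IR, then 15.9% at IR+24h and 38.2% by IR+48h. Col4a1 ran from 1.96% to 16.2% and 31.8%, vkg from 2.17% to 17.4% and 32.8%, and trol from 9.46% to 24.8% and 38.2%. For these genes, single pairs of libraries overlapped between IR+24h and IR+48h. The pairs gave 9.89% to 29% and then 22.4% to 49.7% for Col4a1, and 11.5% to 28.6% and then 21.2% to 54.5% for vkg. For trol they gave 18.7% to 35.5% and then 28.4% to 55.2%. The laminin chains began higher and moved less, LanA from 44.4% to 55.5% and 62.7%, LanB2 from 60.5% to 62.2% and 66.5%, and LanB1 from 74.4% to 68.6% and 79.2%. Ndg stood at 111%, 259% and 176% of NEG, and Tig at 32%, 775% and 100%, but single pairs of libraries gave 52.6% to 432% for Ndg without IR and 51.2% to 163% for Tig at IR+48h. The muscle precursor sum ran from 6.86% to 21.2% and 29.3%, and without Mef2, a marker with similar levels in POS at all 3 time points, from 2.41% to 14.1% and 25.3%. By group means this was the same order of time points as for collagen IV, SPARC and trol. Single pairs for the sum with Mef2 also overlapped, at 16.8% to 28.2% for IR+24h and 20.9% to 47.1% for IR+48h. The hemocyte sum was 21.7%, 10.5% and 13.9%, where the last value rested on POS IR+48h replicate 2 and single pairs gave 3.27% to 25.7%. At -IR and IR+24h most of the sum in POS was srp and crq, which lay closer to their NEG levels than Hml did. Hml, the hemocyte marker hemolectin, stayed at 1.55%, 1.74% and 0.701%. These shares also moved with the NEG level. In NEG the hemocyte sum had means of 133.2, 204.3 and 529.1 CPM at the 3 time points, and Hml had 47.1, 108 and 200 CPM. The NEG libraries of -IR and IR+24h overlapped for both.

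The next comparisons asked how each population changed after IR. They use the same -IR libraries as the comparisons above and as each other, so their values are not independent. In POS, 5 of 9 genes were called in edgeR at IR+24h, all higher, where 5.33% of all genes were called and 4.14% were called higher. The median of the 9 was 2.73 against -0.04 over all genes. Tig had 4.98 ± 0.529 (31.5-fold higher, adjusted p 0.000692), Ndg 3.29 ± 0.532 (9.76-fold, 0.00443), Col4a1 3.15 ± 0.549 (8.88-fold, 0.00655), vkg 3.10 ± 0.503 (8.58-fold, 0.00454) and SPARC 2.73 ± 0.299 (6.61-fold, 0.000692). All 5 passed in every fit with 1 library left out. trol had 1.12 ± 0.39 (adjusted p 0.138), and LanA, LanB1 and LanB2 had -0.09, -0.31 and -0.38, with adjusted p of 0.471 or more.

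In NEG, 0 of 9 were called at IR+24h in edgeR, where 2.16% of all genes were. An unadjusted p under 0.05 was found for 1 of 9, and for 1383 of the 10617 genes tested. With limma voom 0 were called (1.76% of all genes) and with DESeq2 1 (4.78%). Ndg had the largest value, 1.90 ± 0.526 (edgeR adjusted p 0.107), and lay higher in every NEG IR+24h library than in either NEG -IR library. The other 8 lay between -0.42, for LanB2, and 0.32, for Tig, and in none of them were the NEG groups separate. The median was 0.11 against -0.01 over all genes.

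At IR+48h, the 5 genes called in POS were the same, SPARC, Col4a1, vkg, Ndg and Tig, all higher, where 1.63% of all genes were called and 1.27% were called higher. All 9 were above 0, with a median of 2.64 against -0.05 over all genes. Col4a1 had 3.87 ± 0.564 (14.6-fold, adjusted p 0.0103), vkg 3.79 ± 0.516 (13.8-fold, 0.00678), SPARC 3.49 ± 0.307 (11.2-fold, 0.000301), Ndg 3.08 ± 0.527 (0.022) and Tig 2.64 ± 0.489 (0.0268), all from edgeR. trol had 1.64 ± 0.395 (0.0664), LanA 0.26 and LanB1 0.12. Ndg was lost without POS -IR replicate 2 or either POS IR+48h library (adjusted p up to 0.085) and Tig without POS -IR replicate 2 or POS IR+48h replicate 1 (up to 0.28, with the value then 1.84). In a fit of only the 2 groups compared, 1 of 9 was called, where 0.0308% of all genes were.

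In NEG at IR+48h, 0 of 9 were called in edgeR, where 0.113% of all genes were. An unadjusted p under 0.05 was found for 1 of 9, and for 1117 of the 10617 genes tested. With limma voom 0 were called (0.00942% of all genes) and with DESeq2 1 (1.43%). Ndg had 2.26 ± 0.528 (edgeR adjusted p 0.178) and Tig 0.94 ± 0.46 (0.497), and the lowest value was that of trol, -0.38. The median was -0.12 against -0.02 over all genes.

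**Figure D4:**
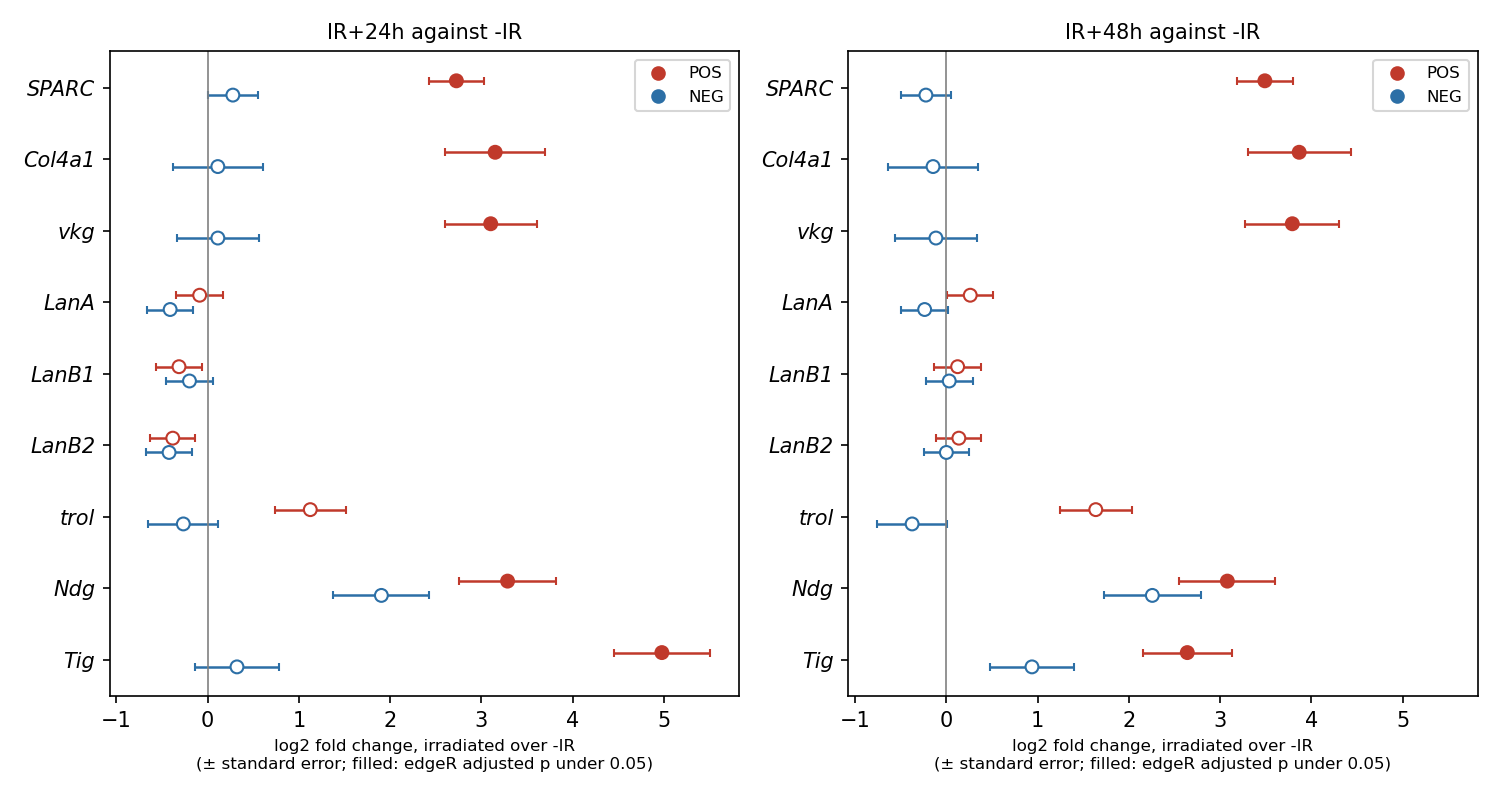
Log2 fold change against -IR at IR+24h and IR+48h in POS and in NEG for each of the 9 genes, with bars of 1 standard error from the edgeR fit and filled points for genes past an adjusted p of 0.05. SPARC, Col4a1, vkg, Ndg and Tig were called higher in POS at both times, with values from 2.64 to 4.98, and no gene was called in NEG.

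From IR+24h to IR+48h, 0 of 9 were called in edgeR in either population, where 0% of all genes were. In POS, 2 of 9 had an unadjusted p under 0.05, as did 523 of the 10617 genes tested. There limma voom and DESeq2 each called 1, with 0.0471% and 0.772% of all genes. In NEG, 0 of 9 had an unadjusted p under 0.05, against 645 of all genes tested. Both tools called 0 there, with 0.0848% and 0.688% of all genes. Tig stood at -2.34 ± 0.458 in POS (5.06-fold lower, edgeR adjusted p 0.287), with both IR+48h libraries below both IR+24h libraries. SPARC had 0.76 and Col4a1 0.72, while Ndg had -0.21 with overlapping libraries.

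A gene that passed in POS and not in NEG is not thereby shown to change differently, so the POS change minus the NEG change was tested for each gene. To IR+24h, 0 of 9 were called in edgeR, where 0% of all genes were. An unadjusted p under 0.05 was found for 5 of 9, and for 353 of the 10617 genes tested. With limma voom 0 were called (0% of all genes) and with DESeq2 3 (0.141%). Tig had 4.66 ± 0.679 (adjusted p 0.107), Col4a1 3.04 (0.945), vkg 2.99 (0.834), SPARC 2.45 ± 0.398 (0.195), trol 1.39 and Ndg 1.38. Without NEG -IR replicate 2, which held 109 counts of Ndg against 6 in replicate 1, the Ndg value was -0.50. With the replicate block within each time point, 4 of 9 were called, Col4a1 at an adjusted p of 0.000557, vkg and Tig at 0.000904 and SPARC at 0.00276, with 0.339% of all genes.

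To IR+48h, all 9 differences were above 0, and 1 of 9 was called in edgeR, where 0.0188% of all genes, or 2, were. This was SPARC at 3.72 ± 0.403 (adjusted p 0.00996). It was no longer past 0.05 without NEG IR+48h replicate 1 (0.0574) or replicate 2 (0.0505), or in limma voom (0.12). Col4a1 had 4.01 (0.213), vkg 3.91 (0.142), trol 2.01 (0.981), Tig 1.70 (1) and Ndg 0.82 (1), and Ndg had -1.07 without NEG -IR replicate 2. With the replicate block within each time point, 4 of 9 were called, Col4a1 at 1.98e-05, vkg at 2.82e-05, SPARC at 3.15e-05 and trol at 0.00651, with 0.386% of all genes.

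**Figure D5:**
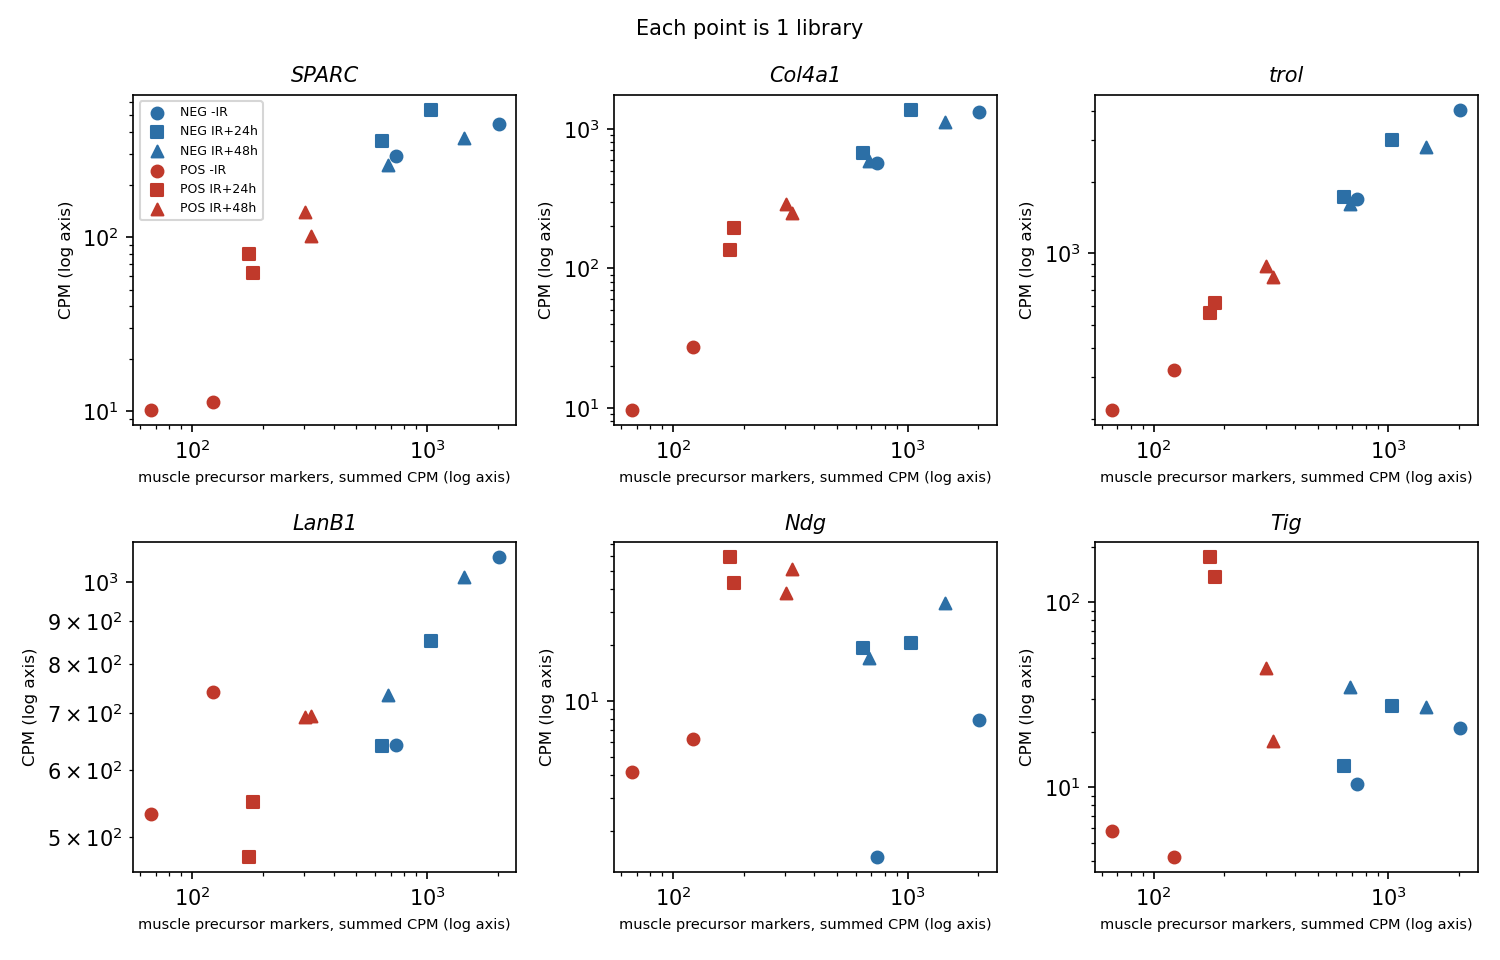
Levels of SPARC, Col4a1, trol, LanB1, Ndg and Tig (CPM, log axis) against the summed level of the 7 muscle precursor markers (CPM, log axis), 1 point for each of the 12 libraries, coloured by population and shaped by time point. SPARC, Col4a1 and trol were higher where the marker sum was higher, with Pearson correlations of 0.932 to 0.992, while Ndg and Tig had -0.0115 and 0.0687.

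The muscle precursor markers also moved with the POS changes after IR. Their sum in POS was 66.7 and 122 CPM without IR, 182 and 174 CPM at IR+24h and 302 and 322 CPM at IR+48h. In edgeR, 1 and then 3 of 7 markers were called higher, where 4.14% and 1.27% of all genes were. Of the 7 markers, htl, the gene of the FGF receptor heartless, had 2.78 and 4.16 CPM in unirradiated POS. It had 16.5 and 21.6 CPM in POS at IR+24h and 41.4 and 37.8 CPM at IR+48h. The 7 markers did not move alike. Him had group means of 3.01, 3.09 and 12.3 CPM in POS at the 3 time points. Mef2 had 65.2, 74.4 and 77 CPM, and nau had 0.416 CPM or less. The sum in NEG was 737 and 2018, 1036 and 646, and 684 and 1443 CPM at the 3 time points. All 7 markers had a log2 fold change below 0 in NEG at IR+24h, and 1 was called lower in edgeR, where 2.16% of all genes were called. Him had group means of 191, 33.6 and 49.2 CPM in NEG, so its share in POS also moved with the NEG level. Over 12 libraries, the log2 CPM of trol correlated with the log2 sum at a Pearson r of 0.992, LanA at 0.946, Col4a1 at 0.942, vkg at 0.940, SPARC at 0.932, LanB2 at 0.852 and LanB1 at 0.785. Ndg had -0.0115 and Tig 0.0687. These are descriptions over libraries that fall into 6 groups and share the sort. Without Mef2 the sum in POS was 15.4 and 43.1 CPM, then 108 and 99.98 CPM, then 225 and 245 CPM, and the correlations were 0.988 for trol, 0.977 for Col4a1, 0.975 for vkg, 0.963 for SPARC and 0.900 for LanA. LanB2 then had 0.796, LanB1 0.724, Tig 0.155 and Ndg 0.0735. Correlations thus rose for collagen IV and SPARC and fell for trol and the laminin chains. Relative to that sum, SPARC stood at 66.1% and 26.0% in POS -IR, 57.2% and 80.1% in the POS libraries of IR+24h, and 62.0% and 41.6% in those of IR+48h, and the 3 POS groups overlapped. It stood at 24.9% to 64.1% in the NEG libraries. Tig stood at 128% and 176% of the sum without Mef2 in POS IR+24h and at 1.17% to 37.6% in the other libraries. Percentages of the sum without Mef2 were taken only for SPARC and Tig. Against the sum of all 7 markers, SPARC was at 9.18% to 15.3% in unirradiated POS libraries and 31.6% to 46.2% in irradiated ones. Col4a1 had 14.6% to 22.2% and then 77.4% to 107%, and vkg 10.9% to 15.2% and then 47% to 69.9%. trol overlapped, at 263% to 328% and then 246% to 338%, and the laminin chains were lower after IR. Mef2 held most of that sum in unirradiated POS. How far muscle precursors account for the POS changes was not tested. The hemocyte sum in POS was 35.7 and 22.0 CPM without IR, 23.8 and 19.0 CPM at IR+24h and 18.1 and 129 CPM at IR+48h, with PPO1 and PPO2 at 47.0 and 60.2 CPM in the last library and at 0 in the one before. No hemocyte marker was called in edgeR in the changes from -IR. At IR+24h and IR+48h, 5.33% and 1.63% of all genes were called in POS and 2.16% and 0.113% in NEG. An unadjusted p under 0.05 was found for 1 and 4 of 10 hemocyte markers in POS and for 2 and 2 in NEG. Among all genes tested there were 1946 and 1537 in POS and 1383 and 1117 in NEG. The lack of calls thus does not show unchanged levels.

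Genes with the most similar pattern were taken as the 3 with the highest Pearson correlation of log2 CPM over the 12 libraries. They were CG12768, Sox100B and htl for SPARC (0.984 to 0.988), Sox100B, stumps and zfh1 for Col4a1 (0.980 to 0.988) and Sox100B, stumps and htl for vkg (0.979 to 0.988). For trol they were kon, zfh1 and twi (0.982 to 0.989). Of these, htl, stumps, zfh1 and twi are in the muscle precursor list. By Spearman rank correlation the 3 closest genes were O-fut2, Sox100B and CAP for both SPARC and vkg. They were Sox100B, Mal-A5 and O-fut2 for Col4a1 and O-fut2, side and Sox100B for trol (0.979 to 0.993 for these members). None of the genes closest by Spearman is in the muscle precursor list, so which genes were the 3 closest depended on the measure. With the summed muscle precursor markers, Spearman correlations were 0.944 for SPARC and Col4a1, 0.951 for vkg and 0.965 for trol. The Pearson values with that sum were 0.932, 0.942, 0.940 and 0.992 for SPARC, Col4a1, vkg and trol. LanA had CadN, so and Dg (0.960 to 0.984), the last encoding dystroglycan, a laminin receptor. LanB2 had CadN, fz2 and CG33459 (0.945 to 0.972) and LanB1 had bab1, Sema5c and Lrch (0.942 to 0.954). Ndg had CG6227, CG43191 and mop (0.934 to 0.941), and Tig had the methionyl-tRNA synthetase gene MetRS, CG14215 and ATP8B (0.868 to 0.897). Between members, SPARC and vkg had 0.986, LanB1 and LanB2 0.958, LanA and LanB2 0.951, and Ndg and Tig 0.729.

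Related genes were examined in 5 lists. Of 9 genes for folding and secretion of collagen IV, 2 were lower in POS without IR, which were Plod, the lysyl hydroxylase of collagen, at -1.44 ± 0.301 (edgeR adjusted p 0.0292), and Pxn, peroxidasin, which crosslinks collagen IV, at -6.52 ± 0.999 (0.00638). Pxn had 19.6 and 47.4 CPM in unirradiated NEG and 0.653 and 0.124 CPM in unirradiated POS, the latter below the level of 3 counts, so its fitted fold is imprecise. Pxn is also known to be made by hemocytes. After IR, 1 of 9 was called in POS at 24 h, Pdi, protein disulfide isomerase, at -0.69 (0.0335), and Pdi had -0.71 (0.0489) in NEG. The prolyl hydroxylase gene PH4alphaEFB, whose enzyme acts on collagen, had 0.03 in POS against NEG without IR and -0.47 and -0.43 in POS at IR+24h and IR+48h, with edgeR adjusted p of 0.271 or more. None of the 9 was called higher in POS after IR, where 4.14% (IR+24h) and 1.27% (IR+48h) of all genes were. Pxn had 1.48 and 0.0650 CPM in POS at IR+24h and 5.10 and 5.16 CPM at IR+48h, above both libraries without IR, at 3.80 ± 0.996 (0.0846).

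Of 10 matrix receptor genes, mew, the alpha chain of a laminin-binding integrin, was lower in POS without IR at -0.76 (edgeR adjusted p 0.0479). In POS at IR+24h, if, the alpha chain of the integrin that binds tiggrin, had -0.88 (0.0488) and the syndecan gene Sdc had -0.75 (0.0218), both lower. The shared integrin beta chain gene mys had 328 and 363 CPM in unirradiated NEG and 304.5 and 285 CPM in unirradiated POS, and 0.45 in POS at IR+24h (0.108). Of 9 genes for adhesion proteins inside the cell, 3 rose in POS at IR+24h, Pax (paxillin) by 1.33 (0.00156), Vinc (vinculin) by 1.18 (0.0432) and rhea (talin) by 0.97 (0.0177). Pax was also called lower in POS without IR, at -0.93 (0.0215), and higher in POS at IR+48h, at 0.91 (0.0312). None of either list was called in NEG after IR, where 2.16% (IR+24h) and 0.113% (IR+48h) of all genes were.

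Of 5 tested genes for matrix proteases and their inhibitor, Mmp1, a secreted matrix metalloprotease and known target of JNK signalling, rose in both populations. It had 155 and 164 CPM in NEG -IR, 396 and 544 CPM in NEG IR+24h and 305 and 283 CPM in NEG IR+48h. In POS it had 246 and 282 CPM without IR, 965 and 1214 CPM at IR+24h and 633 and 488 CPM at IR+48h. The change to IR+24h was 2.04 ± 0.198 in POS (edgeR adjusted p 0.000314) and 1.56 ± 0.197 in NEG (0.00184), and the change to IR+48h in POS was 1.09 ± 0.193 (0.0231). Its POS libraries were highest at IR+24h, as were those of Tig, whereas those of SPARC were highest at IR+48h. Mmp2 had -0.15 (0.934) and Timp, the inhibitor, -1.66 ± 0.5 (0.0843) in POS at IR+24h.

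Of 9 other matrix genes, mfas (midline fasciclin) was higher in POS at all 3 time points, at 1.42, 1.68 and 1.61 (edgeR adjusted p 0.0166, 0.0129 and 0.0278), in contrast to the direction of collagen IV. Mp, the collagen XV/XVIII homologue multiplexin, was higher in POS at IR+24h, at 1.98 (0.00295), and at IR+48h, at 1.38 (0.0296). Mp was singled out after its values were seen. NetA, a netrin, was lower in POS at IR+24h than in POS without IR, at -2.47 (0.0488). The other laminin alpha chain gene, wb, had 121 and 426 CPM in unirradiated NEG and 65.5 and 167 CPM in unirradiated POS, which overlapped, at -1.24 ± 0.486 (0.219).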

How the data were processed

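RNA was sequenced from POS and NEG cells in 12 libraries, 2 in each of 6 groups taken from the sample labels. The authors trimmed adapters and the first 12 bases with BBDuk, dropped reads under 50 bases, used STAR 2.6.0a for alignment and counting on the BDGP6.22 annotation of Ensembl (release 97), and deposited raw gene counts, without normalization, in 1 table of 17753 genes. The dose and the mock-irradiated time come from the paper. A further column matched no sample and was not used (1 in all), and the table has 0 spike-in entries. Whether strand was used in counting is not given in the sources used here.

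Counts were fitted with edgeR 4.0.16 in R 4.3.3 (TMM, filterByExpr, quasi-likelihood F tests, 6 group means, 12 libraries). The filter kept 10617 genes. The 11 contrasts had two-sided tests, adjusted over all genes by Benjamini-Hochberg, with a threshold of 0.05. Standard errors are the log2 fold change over the square root of F. CPM for correlations used a prior count of 2. Identifiers, positions and exon lengths come from BDGP6.54, whose gene models can differ from those counted. Total counts of 4211088 to 19940040 (median 14939250) set the precision, and floors of 3 counts cover counting error only.

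The 9 genes, the related and marker lists and the tests were chosen with earlier results of these data known. The muscle precursor sum without Mef2 was not planned and was added because Mef2 held most of the sum in POS -IR. Genes outside the 9 were named by a rule: Mmp1, Mmp2, Timp, wb, mys, Pxn and PH4alphaEFB always, up to 4 further called genes of each list with the largest change, and the 3 genes most like each member. AdamTS-B was not found under that symbol, which left 5 of the 6 protease genes tested.

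Same-numbered libraries, by the labels, were checked for pairing. Deviations from group means correlated between POS and NEG of a time point at 0.471 (-IR), 0.11 (IR+24h) and 0.162 (IR+48h), all above 0.1, and these were treated as pairs in an alternative fit whose values stand beside the results they change. Neither the labels nor the paper states that they were pairs, and correlations this low at IR+24h and IR+48h do not show it.

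On simulated counts for POS against NEG without IR (10086 genes, 200 changed 4-fold), edgeR recovered 71% of the changed genes, and 7.19% of its calls were unchanged genes. The simulation gave all genes 1 common dispersion and held no pairing and no other difference between groups. Its rates therefore need not hold for the real counts. Alternatives were limma voom 3.58.1 (the paper's tool), DESeq2 1.42.0, no TMM, no filter, a minimum of 1 CPM in every library, fits of the compared groups alone, replicate blocks, and each library left out in turn. A block with crossed numbers at IR+24h was chosen after seeing the data. Figures were drawn with matplotlib 3.10.9.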

Additional observations from a re-analysis of the deposited data

Results flagged for a closer look

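The change of SPARC from -IR to IR+48h differed between POS and NEG in the edgeR test of the difference itself, by 3.72 on the log2 scale (SE 0.403, adjusted p 0.00996). It was not past 0.05 in limma voom (0.12), nor in edgeR without NEG IR+48h replicate 1 (0.0574) or replicate 2 (0.0505). SPARC was 10.2 and 11.2 CPM in POS -IR and 139 and 102 CPM in POS IR+48h, and in NEG it was 290.4 and 446 CPM without IR and 259 and 372 CPM at IR+48h. The summed muscle precursor markers moved in the same direction, from 66.7 and 122 CPM to 302 and 322 CPM in POS and from 737 and 2018 CPM to 684 and 1443 CPM in NEG, or without Mef2 from 15.4 and 43.1 CPM to 225 and 245 CPM in POS, and their part in the difference was not tested.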

How the results depend on the processing

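Counts of the 9 genes called depended on the fit, as did the share of all genes called, which is given in parentheses. POS against NEG without IR gave 5 (2.67%), and 3 in a fit of only the groups compared (0.21%). At IR+24h it gave 3 (0.509%), against 5 with DESeq2 (1.69%), 5 with library sizes without TMM (0.612%), 8 without a filter (2.14%), 8 with only the groups compared (5.34%) and 9 with the replicate block within each time point (3.68%). At IR+48h it gave 0 (0.33%), against 1 with limma voom (0.48%), 3 with DESeq2 (1.22%), 5 without a filter (1.63%), 4 with only the groups compared (1.78%) and 6 with that block (2.54%). The POS change to IR+48h gave 5 (1.63%), and 1 with only the groups compared (0.0308%). For NEG at IR+24h, where 0 were reported (2.16%), DESeq2 gave 1 (4.78%), no filter 1 (3.94%), the replicate block 1 (2.14%) and the block with crossed numbers 1 (2.97%). For NEG at IR+48h, where 0 were reported (0.113%), DESeq2 gave 1 (1.43%) and no filter 2 (1.87%). POS from IR+24h to IR+48h gave 0 (0%), against 1 with limma voom (0.0471%), 1 with DESeq2 (0.772%), 3 without a filter (0.908%) and 8 with only the groups compared (3.99%). The difference of changes to IR+24h gave 0 (0%), against 3 with DESeq2 (0.141%), 5 without a filter (0.409%) and 4 with the block within each time point (0.339%). That to IR+48h gave 1 (0.0188%), against 0 with limma voom (0%), 3 with DESeq2 (0.217%), 5 without a filter (0.582%) and 4 with that block (0.386%). The replicate block over time points gave 2 for POS against NEG at IR+24h (0.471%), and the crossed block gave 6 for the POS change to IR+24h (6.98%), where 5 were reported (5.33%). In all these cases the cause was not tested.

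With each library left out in turn, the counts ranged from 4 to 6 for POS against NEG without IR, 1 to 5 at IR+24h, 0 to 1 at IR+48h, 5 to 6 and 3 to 6 for the POS changes to IR+24h and IR+48h, 0 to 1 for both NEG changes, 0 to 2 and 0 to 3 for the differences of changes, and were 0 from IR+24h to IR+48h. Values that changed sign were small or rested on 1 library. Their ranges were -0.74 to 0.020 for LanB1 in POS against NEG without IR, -0.31 to 0.17 for LanA in POS at IR+24h, -0.095 to 0.39 for LanB1 in POS at IR+48h and -0.43 to 0.043 for Ndg in POS from IR+24h to IR+48h. In NEG at IR+24h they were -0.046 to 0.63 for SPARC, -0.48 to 0.84 for Col4a1, -0.41 to 0.72 for vkg and -0.31 to 0.97 for Tig, and at IR+48h -0.50 to 0.15 for SPARC, -0.67 to 0.60 for Col4a1, -0.61 to 0.51 for vkg and -0.87 to 0.41 for trol. The difference of changes of Ndg ran from -0.50 to 1.97 at IR+24h and from -1.07 to 1.40 at IR+48h. Without TMM the median of all genes in POS against NEG without IR moved from 0.01 to 0.12, and no value reported here changed direction without TMM or with DESeq2's size factors. Depth limits Ndg in NEG -IR replicate 1, where 6 counts were found.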
